A study of Mus musculus with 6 samples.

Results

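Ide, Btaf1 and 8 further genes that lie beside them on mouse chromosome 19 were followed in the distal colon of wildtype mice and of mice that lack TNFR2, a receptor for tumor necrosis factor. The 10 genes are Pcgf5, Ppp1r3c, Tnks2, Fgfbp3, Btaf1, Cpeb3, Ide, Kif11, Hhex and Exoc6, in that order along the chromosome, and they make up 10 of the 24617 rows of the deposited expression table. They were chosen by measured values, the lower FPKM of Ide and Btaf1 in the knockout, and by position, between 36348430 and 37684050 on chromosome 19 of mm10. Their own knockout against wildtype values are therefore given as a description. Where a fit over all rows also calls members, the count stands beside the share of all rows called, and nothing is read from it.

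RNA of the distal colon, enriched for messenger RNA, was sequenced from 3 wildtype and 3 TNFR2-knockout males aged 8 weeks, all labelled as strain C57Bl/6. The labels name no other allele and no treatment. They do not give the substrain or say whether the wildtype mice were littermates of the knockouts, so genotype and colony of origin cannot be told apart. Values are in FPKM, fragments scaled by transcript length and by library, as made by the authors. In this unit a gene can be set beside another of different length.

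Ide encodes the insulin-degrading enzyme, a zinc metalloprotease of the cytosol that also cleaves amyloid beta and glucagon. Btaf1 encodes an ATPase that strips the TATA-binding protein from DNA, and Fgfbp3 a secreted protein that binds fibroblast growth factors. Variation in DNA copy number that includes Ide and Fgfbp3 has been described among mice of the C57BL/6J strain. DNA copy number was not measured in this series.

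The libraries were first checked as a whole. Summed FPKM lay between 655274 and 709593, and depth relative to wildtype library 1, read from the steps between the lowest values, lay between 0.736 and 1.10. Tnfrsf1b, the targeted gene, measured 7.49, 8.20 and 8.17 FPKM in the wildtype libraries, against 1.17, 1.12 and 0.924 FPKM without TNFR2. Genes of colonocytes and goblet cells were high in every library, with medians over 14 markers between 214 and 332 FPKM. Markers of skin and of skeletal muscle were present as well and differed between libraries. The median of 19 skin markers was 83.1, 31.2 and 85.5 FPKM in wildtype libraries, against 4.84, 39.9 and 68.3 FPKM without TNFR2. The median of 15 skeletal muscle markers was 272, 73.1 and 81.1 FPKM in wildtype libraries, against 1.88, 38.4 and 25.3 FPKM without TNFR2. Wildtype libraries 1 and 3 were the highest in both lists and knockout library 1 the lowest.

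Fgfbp3, Btaf1, Ide and Ppp1r3c were at 43.7%, 43.0%, 47.0% and 48.7% of wildtype in the knockout and Kif11 was at 154%, while Pcgf5, Tnks2, Cpeb3, Hhex and Exoc6 stood between 86.8% and 114%. Fgfbp3 and Btaf1 lie side by side, and Ide lies 254.7 kb further on, with Cpeb3 and March5 between them. Cpeb3 stood at 87.4% and March5 at 92.6% of wildtype. Ppp1r3c lies before Tnks2, which stood at 94.7%. The 4 lower genes therefore did not form an unbroken stretch along the chromosome.

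Ide (chromosome 19, 37268741 to 37337847, minus strand, 24 exons in its longest annotated transcript) measured 20.3, 21.2 and 24.1 FPKM in the wildtype libraries, against 8.86, 9.92 and 12.0045 FPKM without TNFR2. All 3 knockout libraries lay far below the lowest wildtype library. The means were 21.8 ± 1.98 and 10.3 ± 1.6002 FPKM (SD, n = 3 each), 47.0% of wildtype. Wildtype library 2 had a lower skin median than knockout libraries 2 and 3, and against those libraries alone the Ide level in the knockout was 51.8% of wildtype. The skeletal muscle median went the other way in these libraries, with 73.1 FPKM in wildtype library 2 and 38.4 and 25.3 FPKM in the knockout ones. The part of skin and muscle tissue in the Ide values was not tested.

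Btaf1 (36925841 to 37014061, plus strand, 38 exons) measured 9.58, 13.8 and 11.8 FPKM in wildtype libraries, against 5.32, 4.30 and 5.48 FPKM without TNFR2. Again the genotypes did not overlap, although the wildtype libraries were more spread than for Ide. The means were 11.7 ± 2.10 and 5.04 ± 0.643 FPKM (SD, n = 3 each), 43.0% of wildtype. With wildtype library 2 and knockout libraries 2 and 3 alone, Btaf1 stood at 35.5% of wildtype.

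Fgfbp3 (36917550 to 36919599, minus strand, 2 exons) was expressed at a much lower level. It measured 1.44, 2.07 and 2.29 FPKM in wildtype libraries, against 0.873, 0.902 and 0.760 FPKM without TNFR2, with no overlap between genotypes. Its means were 1.93 ± 0.443 and 0.845 ± 0.0749 FPKM (SD, n = 3 each), 43.7% of wildtype. It is the shortest of the 10 genes by its longest annotated transcript, with 1772 bases, so its FPKM rest on the fewest fragments per unit of level.

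The mean proportions between the 3 genes were similar in both genotypes. These 3 genes were set together with their lower values known, and genes lower by like factors keep like proportions. The ratios are therefore a description only, and nothing is read from them. The level of Ide divided by that of Btaf1 in the same library was 1.90 ± 0.317 in wildtype and 2.05 ± 0.343 in the knockout (SD, n = 3 each). For Btaf1 over Fgfbp3 the ratio was 6.16 ± 0.881 and 6.03 ± 1.22, and for Ide over Fgfbp3 it was 11.6 ± 2.16 and 12.3 ± 3.04. The differences between genotypes in these ratios were smaller than the SD of the libraries. Among wildtype libraries all 3 genes were lowest in library 1, Ide and Fgfbp3 were highest in library 3 and Btaf1 in library 2. Among knockout libraries Ide and Btaf1 were highest in library 3, where Fgfbp3 was lowest.

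**Figure D1:**
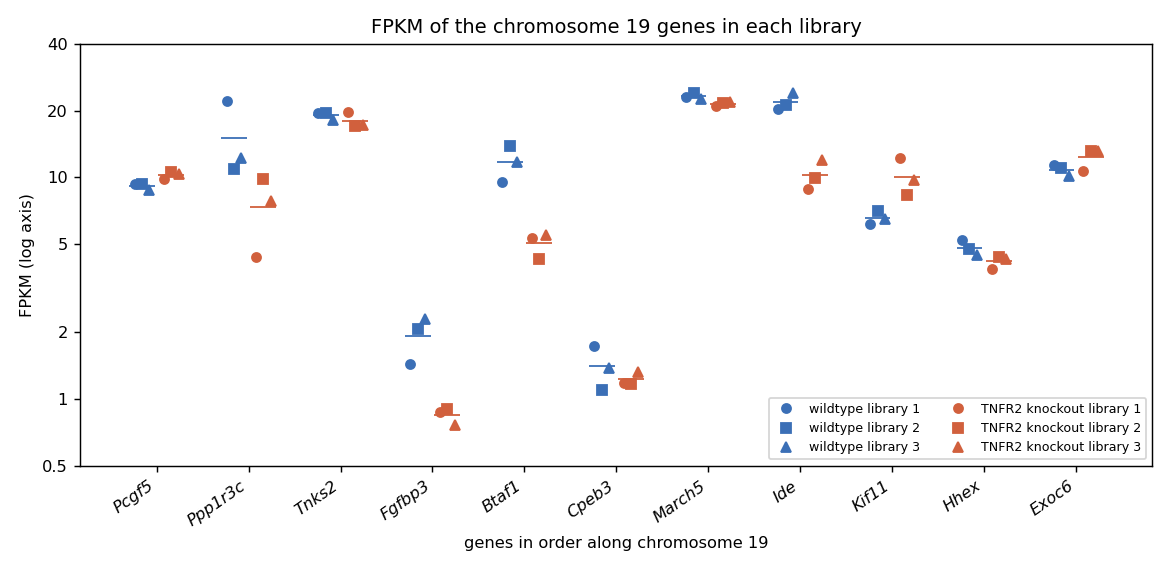
FPKM on a log axis for the 10 genes and March5 in order along chromosome 19, with each library as a point and group means as lines. The knockout points of Fgfbp3, Btaf1 and Ide lie below all wildtype points, at 43.7%, 43.0% and 47.0% of the wildtype mean, while Cpeb3 and March5 between them stand at 87.4% and 92.6%.

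Start regions of Fgfbp3 and Btaf1 are shown beside that of Cpeb3, the nearest gene on the far side of Btaf1 whose level was close to wildtype, because the ratio steps between Btaf1 and Cpeb3. The Cpeb3 start lies at the end of that gene away from Btaf1. The windows run from 250 bases before to 50 bases after the RefSeq start of each gene in GRCm38.p6, the assembly of mm10, and all 10 genes had at least 1 window. Capitals mark matches, on either strand, to the TATA box (TATAAA), the CCAAT box (CCAAT), the GC box (GGGCGG), the ETS core (CCGGAAG) or the cAMP response element (TGACGTCA), motifs chosen with these windows in view. The first lies at chr19:36919550-36919849 on the minus strand, the second at chr19:36925829-36926128 on the plus strand and the third at chr19:37207422-37207721 on the minus strand.
Fgfbp3: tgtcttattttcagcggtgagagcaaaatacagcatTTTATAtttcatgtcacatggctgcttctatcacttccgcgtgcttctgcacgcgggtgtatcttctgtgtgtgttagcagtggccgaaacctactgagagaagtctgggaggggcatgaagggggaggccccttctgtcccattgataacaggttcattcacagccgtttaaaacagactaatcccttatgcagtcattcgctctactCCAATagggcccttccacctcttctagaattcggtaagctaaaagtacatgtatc
Btaf1: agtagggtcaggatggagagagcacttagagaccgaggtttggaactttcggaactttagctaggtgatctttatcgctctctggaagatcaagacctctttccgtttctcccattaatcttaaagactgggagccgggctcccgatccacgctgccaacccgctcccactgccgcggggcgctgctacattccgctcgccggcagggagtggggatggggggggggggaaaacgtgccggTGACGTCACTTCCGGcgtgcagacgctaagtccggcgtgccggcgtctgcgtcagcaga
Cpeb3: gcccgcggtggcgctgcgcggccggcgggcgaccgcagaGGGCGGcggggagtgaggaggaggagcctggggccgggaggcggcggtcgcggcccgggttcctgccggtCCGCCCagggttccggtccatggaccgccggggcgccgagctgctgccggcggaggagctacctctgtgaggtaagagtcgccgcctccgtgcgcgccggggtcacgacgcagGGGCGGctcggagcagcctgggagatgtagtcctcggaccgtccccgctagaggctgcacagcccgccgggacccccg

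The windows of Fgfbp3 and Btaf1 did not look alike, although the level of both genes was lower by a similar factor. Fgfbp3 had 9 CpG dinucleotides and a GC content of 46.7%, with 1 match to TATAAA and 1 to CCAAT. Btaf1 had 25 CpG dinucleotides and a GC content of 60.0%, with 1 match to TGACGTCA directly followed by 1 to CCGGAAG, without overlap. Cpeb3 had 42 CpG dinucleotides, a GC content of 77.7% and 3 matches to GGGCGG, and its window shares 173 bases with that of March5, which is read from the other strand. Over all 32817 windows the median was 7 CpG dinucleotides and 52.7% GC. A match to TATAAA was in 13.6% of windows, to CCAAT in 37.4%, to GGGCGG in 35.6%, to CCGGAAG in 8.86% and to TGACGTCA in 1.79%. The RefSeq start of Ide lies 3303 bases inside the end of its deposited locus, so its window is not shown.

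Near copies that could share reads were sought among annotated transcripts. The query of each gene was the first sequence line of its longest annotated protein-coding transcript. Searched against GENCODE M21 transcripts of other genes, it gave 0 matches of at least 100 bases at 90% identity or more. Whether that line held the whole transcript was not recorded. A line under 100 bases could give no such match, so nothing is read from this result. Shorter matches, down to the read length of 50 bases, were not searched.

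At the edges of the lower genes the ratio changed from a gene to its neighbour, where each gene has a single value for its whole length. Tnks2, which encodes tankyrase 2, a poly-ADP-ribose polymerase that marks axin for destruction, ends 24.1 kb before Fgfbp3. It measured 19.6, 19.5 and 18.1 FPKM in wildtype libraries, against 19.8, 17.1 and 17.3 FPKM without TNFR2, so the genotypes overlapped. From Tnks2 to Fgfbp3 the log2 ratio of knockout to wildtype means went from -0.08 to -1.19. Between Fgfbp3 and Btaf1 it moved by -0.03 only, to -1.22. Steps of similar size lay at Ppp1r3c, with -1.20 from Pcgf5 to Ppp1r3c and 0.96 from Ppp1r3c to Tnks2.

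The locus of Cpeb3 lies 7.11 kb past the end of Btaf1. Cpeb3 is read from the minus strand, so its 3' end faces Btaf1 and its start lies at the far end. Its log2 ratio, a single value for the whole gene, was -0.19. This gene encodes a protein that binds the cytoplasmic polyadenylation element of messenger RNAs and restrains their translation. It measured 1.73, 1.10 and 1.39 FPKM in wildtype libraries, against 1.18, 1.17 and 1.33 FPKM without TNFR2, and all knockout values lay inside the wildtype range. The sign of its small difference was not stable, and with wildtype library 2 against knockout libraries 2 and 3 its log2 ratio was 0.18.

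March5, a ubiquitin ligase of the outer mitochondrial membrane, ends 44.3 kb before Ide. It measured 23.0, 24.1 and 22.7 FPKM in wildtype libraries, against 21.0, 21.6 and 22.0 FPKM without TNFR2. The genotypes did not overlap, but the knockout mean was 92.6% of wildtype, far from the 47.0% of Ide. Past Ide, the next gene is Kif11, which starts 38.6 kb away and was higher in the knockout. The change in the log2 ratio from Ide to Kif11, from -1.09 to 0.62, was larger than between any other pair of neighbours among the 10 genes.

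The outer genes of the set stood near wildtype. Pcgf5, a subunit of a Polycomb repressive complex of type 1, measured 9.34, 9.34 and 8.79 FPKM in wildtype libraries, against 9.88, 10.6 and 10.3 FPKM without TNFR2, 112% of wildtype. Hhex, a homeobox factor of endoderm, blood and vessel development, measured 5.24, 4.76 and 4.44 against 3.85, 4.39 and 4.28 FPKM, 86.8% of wildtype. In both genes the genotypes lay apart by narrow margins. Exoc6, a subunit of the exocyst that tethers secretory vesicles to the plasma membrane, measured 11.4, 11.01 and 10.1 against 10.6, 13.2 and 13.2 FPKM, with overlap.

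**Figure D2:**
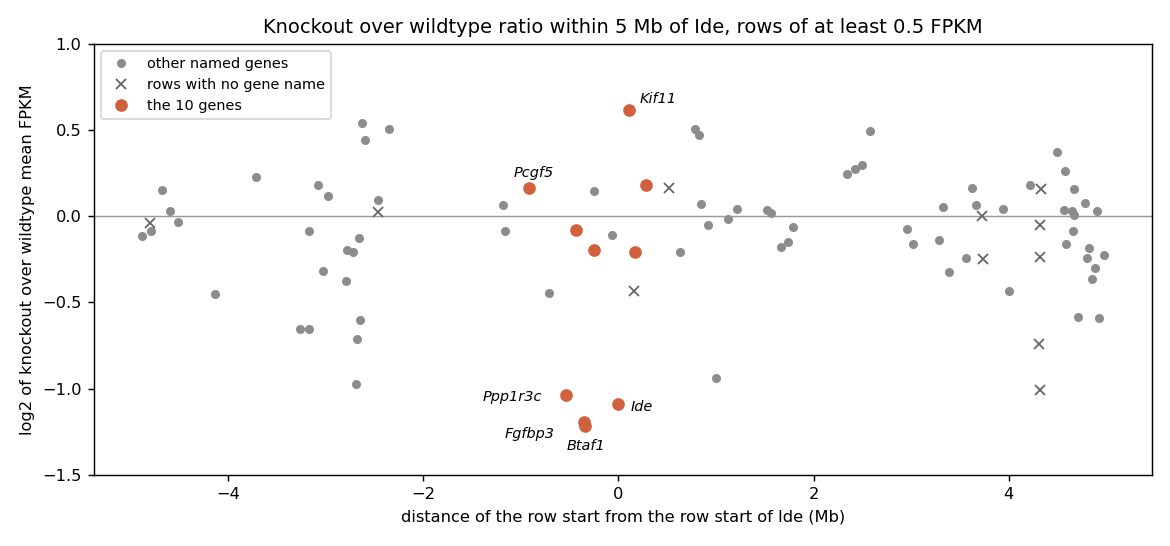
Log2 ratio of knockout to wildtype mean FPKM against the distance in Mb from the row start of Ide, for rows with a mean of at least 0.5 FPKM. Fgfbp3, Btaf1, Ide and Ppp1r3c are the lowest points within 5 Mb, between -1.04 and -1.22. Between them lie Tnks2, March5 and Cpeb3, at -0.08, -0.11 and -0.19, and A330032B11Rik at 0.15. Other genes at 0 or above lie around them.

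Ide, Btaf1 and Fgfbp3 were also set against their neighbours within each library, where any scaling factor of the library cancels by construction. These ratios use the values that chose the set and are a description only. Each gene was divided by the geometric mean of the other 7 genes of the set in the same library. For Ide this ratio was 2.46, 3.03 and 3.46 in wildtype and 1.36, 1.38 and 1.66 in knockout libraries. For Btaf1 it was 1.16, 1.97 and 1.70 against 0.816, 0.597 and 0.760, and for Fgfbp3 0.175, 0.296 and 0.330 against 0.134, 0.125 and 0.105.

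In all 3 genes every knockout ratio was below every wildtype ratio. The knockout means were 49.1%, 45.0% and 45.5% of wildtype for Ide, Btaf1 and Fgfbp3. Divided by March5 alone, a gene that lies between them, they were 50.5%, 46.5% and 47.3%.

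**Figure D3:**
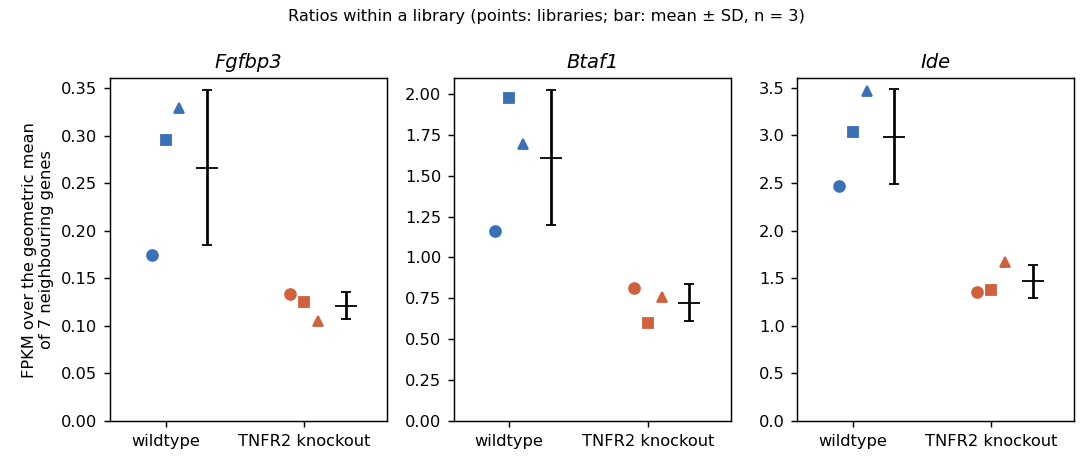
FPKM of Fgfbp3, Btaf1 and Ide divided by the geometric mean of the 7 other genes in the same library, with libraries as points and mean ± SD (n = 3) as bars, each axis starting at 0. Knockout libraries sit at 45.5%, 45.0% and 49.1% of the wildtype mean, with no overlap in any panel.

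Ppp1r3c was lower by a similar factor but with a different pattern over libraries. Its product targets protein phosphatase 1 to glycogen and so favours glycogen storage in muscle, liver and fat. The gene (36731731 to 36736604, minus strand) measured 22.2, 10.9 and 12.2 FPKM in wildtype libraries, against 4.36, 9.84 and 7.84 FPKM without TNFR2, 48.7% of wildtype. The genotypes did not overlap, but wildtype library 2 and knockout library 2 were close. With wildtype library 2 against knockout libraries 2 and 3, Ppp1r3c stood at 80.8% of wildtype, whereas Ide stood at 51.8%.

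The order of the 6 libraries in Ppp1r3c was the same as their order in the skeletal muscle list, from wildtype library 1 through wildtype 3, wildtype 2, knockout 2 and knockout 3 to knockout library 1. All 15 muscle markers had lower means in the knockout, and their summed level spanned 2818 to 9211 FPKM with TNFR2 and 155 to 2122 FPKM without it. None of the markers was at 0 throughout. The part of muscle tissue in the Ppp1r3c values was not tested. In whole tissue, fewer cells of a type and less RNA per cell cannot be told apart.

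Kif11 stood higher relative to wildtype than any other of the 10 genes. It encodes the kinesin Eg5, which pushes the spindle poles apart in mitosis. Kif11 (37376403 to 37421859, plus strand) measured 6.16, 7.02 and 6.49 FPKM in wildtype libraries, against 12.2, 8.35 and 9.68 FPKM without TNFR2, 154% of wildtype. Every knockout library was above every wildtype library, with knockout library 1 the highest.

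Markers of dividing cells moved with it. Their median over 8 genes was 11.8, 12.4 and 13.1 FPKM in wildtype libraries, against 23.3, 17.2 and 19.3 FPKM without TNFR2, in the same order of knockout libraries as Kif11. All 8 had higher means in the knockout, and their summed level spanned 98.9 to 110 FPKM with TNFR2 and 137 to 182 FPKM without it. Whether Kif11 follows the number of dividing cells was not tested. Markers of skeletal muscle and skin were lowest in the same knockout library 1.

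**Figure D4:**
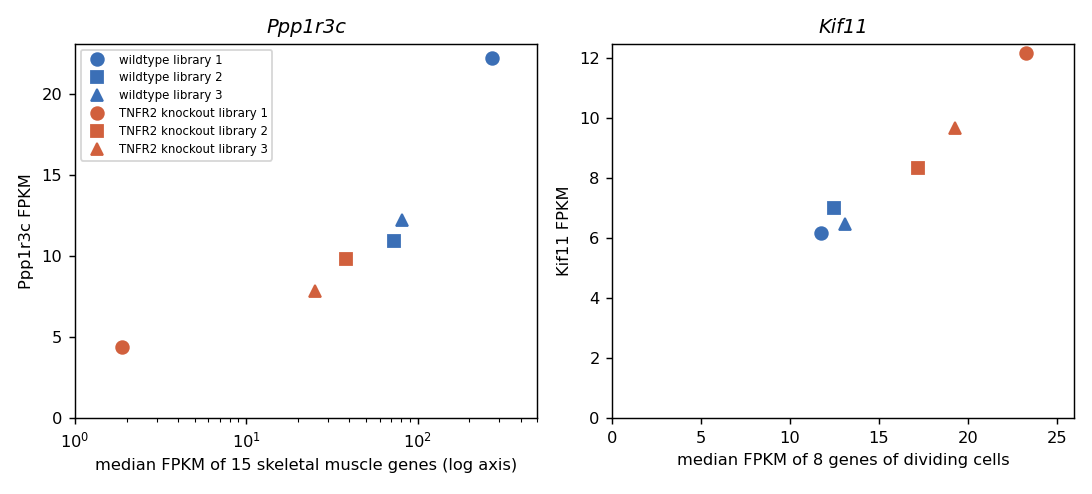
Left, FPKM of Ppp1r3c against the median FPKM of 15 skeletal muscle genes on a log axis; right, FPKM of Kif11 against the median FPKM of 8 genes of dividing cells, with 1 point per library. Wildtype library 1 is highest (22.2 FPKM) and knockout library 1 lowest (4.36 FPKM) in Ppp1r3c, and the 3 knockout libraries are highest in both measures on the right.

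Counted over the set, 7 genes had lower and 3 had higher means in the knockout. Of all 14564 rows tested, 8353 were lower by mean log2(FPKM + 1). In 5 genes, Ppp1r3c, Fgfbp3, Btaf1, Ide and Hhex, all knockout libraries were below all wildtype libraries, which held for 12.5% of the 14564 rows tested. In 2 genes, Pcgf5 and Kif11, all were above, which held for 9.3% of tested rows. Limma, with Benjamini-Hochberg adjustment over all tested rows, called 2 of the 10, Ide and Btaf1, both lower, against 0.288% of all tested rows called and 0.103% called lower. The call of Ide was lost without wildtype library 1 or 3, without knockout library 1 or 2 and without the level minimum, and that of Btaf1 in 11 of 16 other fits, among them the replicate block and each fit without wildtype library 3 or a single knockout library. The authors' deposited table marks 2 of the 10, Btaf1 and Ppp1r3c, against 1.02% of its rows. These counts are given beside their backgrounds, and nothing is read from them because the genes were picked on the same contrast.

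The median difference in log2(FPKM + 1) was -0.13 over the 10 genes and -0.03 over all tested rows. Differences on this scale understate those of low genes such as Fgfbp3. For Ide the authors' deposited table lists group values of 22.3 and 10.5 FPKM but a log2 fold change of 0 and p = 1. In that table Pcgf5 has the same entries, with group values of 9.40 and 10.5 FPKM. These entries stand in 3777 of its 24617 rows, so the lack of a mark on Ide and Pcgf5 is not read as a test result. For the other 8 genes the log2 fold change in the authors' deposited table was the ratio of its group values, at -1.22 for Btaf1, -1.17 for Fgfbp3 and 0.62 for Kif11.

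Rows around the set were tested next. Within 5 Mb of the start of Ide 74 other rows were tested, and limma called 0 of them after Benjamini-Hochberg adjustment, against 0.288% of all tested rows. An unadjusted p under 0.05 was found in 17, or 23.0%, against 16.2% of all tested rows, and the authors' deposited table marks 1, Gm14446. Their median log2 difference was -0.04. All knockout libraries were below all wildtype libraries in 13.5% of these rows and above in 8.11%, close to the shares over all tested rows.

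Genes with a pattern most like that of Ide over the 6 libraries were sought among 12060 other named rows with a mean of at least 2 FPKM. By Pearson correlation of log2(FPKM + 1), given as a description because all points share the same 6 libraries, the nearest were Rap1a (r = 0.997), S100a11 (r = 0.995), Rnf166 (r = 0.994), Ctnnal1 (r = 0.993), Kazald1 (r = 0.986) and Tmem41b (r = 0.983). Only Kazald1 of these lies on chromosome 19. The likeness is one of shape and not of size, since Rap1a, a small GTPase, stood at 91.8% of wildtype and Tmem41b at 59.5%.

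Btaf1 ranked 90th in this order, with r = 0.942. For Fgfbp3, which is under the level minimum, r was 0.917. When each library was taken as its deviation from the genotype mean, r with Ide fell to 0.26 for Btaf1 and 0.24 for Fgfbp3 over the same libraries. For the 6 nearest rows it lay between 0.71 for Tmem41b and 0.96 for Rap1a, but these rows were picked for a high r over the same libraries.

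The last comparison asks whether genes that work with the 10 differed between genotypes. These partners did not enter the choice of the 10, but their lists were made with earlier results of these data known. Partners were listed for each gene, and of 139 tested partner genes limma called 0 after Benjamini-Hochberg adjustment over all rows (smallest adjusted p = 0.129), against 0.288% of all tested rows. An unadjusted p under 0.05 was found in 26, or 18.7%, against 16.2% of all tested rows. Of these 26, 16 were the spindle genes around Kif11, so the pooled share does not describe the other lists. The authors' deposited table marks 2 of them. The median log2 difference of the partners was 0.00, and 72 had higher and 67 lower means.

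Around Ide, 0 of 14 tested genes of peptide proteolysis and insulin signalling were called by limma, 6 with higher and 8 with lower means, and all log2 differences lay between -0.16 and 0.14. None of the 14 reached an unadjusted p under 0.05, and the authors' table marks none. App, the precursor of amyloid beta and the most highly expressed, measured 179 ± 8.41 FPKM with TNFR2 and 166 ± 7.48 FPKM without it, and the aminopeptidase gene Lap3 38.9 ± 2.47 and 36.0 ± 1.21 FPKM (SD, n = 3 each). Among 20 tested regulators and partners of the TATA-binding protein around Btaf1, limma called 0 and 1 had an unadjusted p under 0.05. That gene was Drap1, a subunit of a repressor that blocks the TATA-binding protein, with 164 ± 11.5 and 136 ± 2.08 FPKM (limma, Benjamini-Hochberg adjusted p = 0.227). Of 12 tested genes of fibroblast growth factor signalling around Fgfbp3, 0 were called and 2, the receptor genes Fgfr1 and Fgfrl1, had an unadjusted p under 0.05. The related Fgfbp1 measured 66.9 ± 8.28 and 59.7 ± 11.9 FPKM, and the receptor gene Fgfr2 17.9 ± 1.51 and 17.2 ± 1.14 FPKM.

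Spindle genes around Kif11, of which Mki67 is also among the markers of dividing cells, had higher means throughout. All 16 tested members had higher means in the knockout, all 16 had an unadjusted p under 0.05, and in 15 every knockout library was above every wildtype library, against 9.3% of all tested rows. Their median log2 difference was 0.46, against -0.03 over all tested rows. The 16 genes were measured in the same 6 libraries, so they are not 16 separate observations. Limma called 0 of the 16 after Benjamini-Hochberg adjustment over all rows, and the authors' table marks none. Mki67, a protein of dividing cells, measured 11.9, 13.2 and 13.0 FPKM in wildtype libraries, against 23.7, 17.6 and 19.2 FPKM without TNFR2. Nusap1, a spindle protein, had the smallest adjusted p of all partner genes at 0.129 (limma, Benjamini-Hochberg), with 8.06 ± 0.996 and 13.0 ± 1.39 FPKM (SD, n = 3 each).

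Glycogen genes around Ppp1r3c were lower in 14 of 17 tested members by their means, with a median log2 difference of -0.15, and limma called 0, with Gys1 and Pygl at an unadjusted p under 0.05. Pygm, the glycogen phosphorylase of muscle, measured 198, 63.1 and 74.8 FPKM in wildtype libraries, against 8.19, 52.2 and 34.1 FPKM without TNFR2. Ppp1r3a, the muscle paralog of Ppp1r3c, measured 2.77, 0.960 and 0.972 against 0.0331, 0.851 and 0.616 FPKM. Both followed the library order of the muscle markers given above, and both are marked in the authors' deposited table. The phosphatase genes Ppp1ca and Ppp1cc measured 174 ± 8.36 and 113 ± 6.49 FPKM in wildtype, and without TNFR2 172 ± 15.7 and 116 ± 11.2 FPKM (SD, n = 3 each).

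Partners of the remaining genes of the set showed no call either. Limma called 0 of 10 tested genes of cytoplasmic polyadenylation around Cpeb3, 0 of 10 exocyst genes around Exoc6 and 0 of 10 genes of tankyrase and axin turnover around Tnks2. It also called 0 of 17 genes of Polycomb repressive complexes around Pcgf5 and 0 of 13 partners and targets of Hhex. In the same order 0, 1 (Exoc1), 1 (Sh3bp2), 1 (Auts2) and 2 genes had an unadjusted p under 0.05. Among the last was Kdr, a receptor of vascular endothelial growth factor, at 71.6% of wildtype. Kdr is also among the 8 endothelial markers, all of which had lower means in the knockout. Over all 5 lists the authors' table marks none. Median log2 differences of these 5 lists lay between -0.03 and 0.02. The catenin gene Ctnnb1, highest in the tankyrase list, measured 239 ± 14.7 and 238 ± 14.2 FPKM, and Auts2, a partner of Pcgf5, 2.41 ± 0.0641 and 3.27 ± 0.108 FPKM (limma, Benjamini-Hochberg adjusted p = 0.183).

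**Figure D5:**
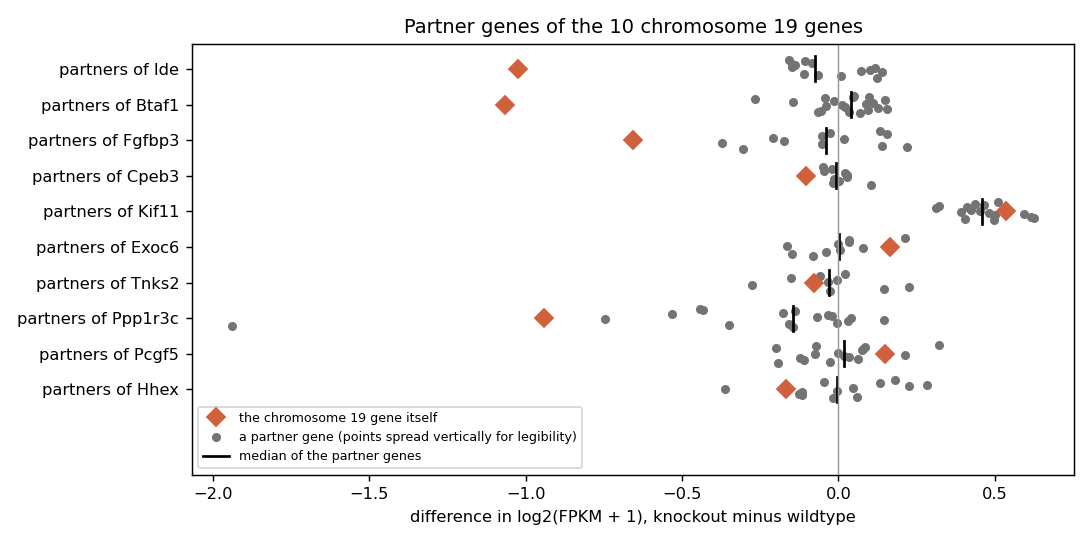
Difference in log2(FPKM + 1), knockout minus wildtype, for the partner genes of each of the 10 genes (grey points, with the median as a black line) and for the gene itself (diamond). The spindle genes around Kif11 lie to the right, with a median of 0.46, while partners of Ide, Btaf1 and Fgfbp3 lie around 0.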

How the data were processed

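Gene levels are FPKM that the authors deposited for each of 6 libraries, beside their group FPKM, log2 fold change, p-value and q-value. Paired reads were aligned with Tophat2 and Bowtie2, assembled with Cufflinks and tested with Cuffdiff 2, per the series' design text, and mm10 is named in the submitters' processing notes. Releases, gene annotation, strand setting and library scaling: not given in the sources used here. Groups came from the sample titles. Deposited starts count from 0, since 42.3% of 20111 matched rows lie 1 below the RefSeq start and 2.66% equal it, so 1 was added.

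Log2(FPKM + 1) of 14564 named rows with a mean of at least 0.5 FPKM was compared by limma 3.58.1 (R 4.3.3) with trend and robust moderation, with a threshold of 0.05 on the Benjamini-Hochberg adjusted p. The script was tested on simulated data. FPKM are not counts, so no counting interval was computed. Members, lists and tests were chosen with earlier results of these data known. The rule for named rows took all 10 members, called flanking rows within 5 Mb, the nearest 4 rows on each side and those between members. It also took the 6 rows most like Ide (small RNA and predicted genes left out), the called and the 2 most highly expressed genes of each partner list, the 2 most highly expressed of each marker list, and Tnfrsf1b. Smallest-p genes, genes marked by the authors, Ifit3 and Lgi1 were added after their values were seen. Gene models came from GENCODE M21 and windows from RefSeq GRCm38.p6, and transcripts were compared with blastn 2.17.0. Unnamed rows (6.13%) were not tested. 1 gene of a partner list is not reported here. Alternatives changed the pseudocount, filter, scaling, moderation, covariates and libraries.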

Additional observations from a re-analysis of the deposited data

How the results depend on the processing

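Under the alternatives run, Ide stayed between 43.0% and 51.8% of wildtype, Btaf1 between 35.5% and 47.1% and Fgfbp3 between 38.8% and 50.6%. Ppp1r3c moved from 40.4% to 80.8%, and Kif11 from 128% to 167%. Cpeb3 changed sign in 2 of 16 alternatives, quantile normalisation (0.03 on the log2 scale) and wildtype library 2 against knockout libraries 2 and 3 (0.18), which also gave the highest value of Ppp1r3c and the lowest of Btaf1 and Kif11. The median log2 difference over the 10 genes was -0.13 and lay between -0.18 and -0.06.

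Of all tested rows, 42 were called. The count was 22 without small RNA genes, 27 with the skin markers as a covariate and between 21 and 74 when single libraries were left out: 27 without wildtype library 1, 74 without wildtype library 2, 22 without wildtype library 3 and 21 without knockout library 3. With the replicate block it was 24. The labels do not say whether replicate numbers pair the libraries. Same-numbered libraries had correlations of -0.375, -0.337 and 0.209 in their deviations from the group means, and 2 of 6 libraries correlated best with their own number. With so few libraries this cannot decide whether they are paired. Without wildtype libraries 1 and 3 and knockout library 1, 130 rows were called, 2 of them among the flanking rows, but that fit assumes that the lone wildtype library varies like the knockout libraries. The causes of these changes were not tested. Limma called 0 partner genes under each of the 16 alternatives fitted, with between 12 and 37 at an unadjusted p under 0.05. Fgfbp3 and Cpeb3 are limited by their low level, and 3 libraries per genotype limit every value.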

Other observations

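Other rows near the 10 genes are given as values. A330032B11Rik, annotated as antisense to Cpeb3 and given the same deposited locus, measured 1.09, 1.19 and 0.812 FPKM in wildtype libraries, against 1.01, 1.20 and 1.21 FPKM without TNFR2, with overlap. The strand setting of the counting is unknown, so Cpeb3 and A330032B11Rik cannot be told apart where they overlap. Hectd2, a ubiquitin ligase gene between Pcgf5 and Ppp1r3c, averaged 0.493 ± 0.0894 FPKM in wildtype and 0.375 ± 0.0639 FPKM in the knockout (SD, n = 3 each) and was under the minimum for testing. The row 1500017E21Rik at the same locus averaged 0.882 ± 0.210 and 0.647 ± 0.0718 FPKM. Between March5 and Ide, 4931408D14Rik was at most 0.0500 FPKM in any library.

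Further out, 2 genes of mitosis lay within 5 Mb of Ide and had higher means in the knockout, like Kif11. Kif20b, a mitotic kinesin already counted among the spindle genes around Kif11, measured 2.90, 3.27 and 3.09 FPKM in wildtype libraries, against 5.19, 3.87 and 4.12 FPKM without TNFR2. Cep55, a scaffold of the last step of cell division, measured 3.42, 3.62 and 3.91 against 6.41, 4.58 and 4.57 FPKM. Neither was called (limma, Benjamini-Hochberg adjusted p = 0.222 and 0.251). The interferon-induced gene Ifit3 stood at 50.9% of wildtype and Lgi1 at 52.2%, and these were the only tested neighbours at or under 0.6 of wildtype (limma, Benjamini-Hochberg adjusted p = 0.159 and 0.392). Rap1a and S100a11, the rows most like Ide in shape, measured 95.7 ± 1.16 and 560.4 ± 7.23 FPKM with TNFR2, and 87.9 ± 1.36 and 481 ± 18.98 FPKM without it (SD, n = 3 each).

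Apart from Myof, the other nearest rows were close between genotypes or low. Rpp30, a subunit of ribonuclease P, averaged 9.19 ± 1.08 FPKM in wildtype and 9.62 ± 0.833 FPKM in the knockout, and Myof, a membrane repair protein, 14.95 ± 0.370 and 12.96 ± 0.806 FPKM (SD, n = 3 each). Myof stood at 86.7% of wildtype, with every knockout library below every wildtype library, which held for 12.5% of all tested rows. Ankrd1 averaged 0.615 and 0.580 FPKM, Htr7 0.2502 and 0.1645 FPKM, and Cyp26a1 0.0669 and 0.0684 FPKM, while Cyp26c1 was listed at 0 in all libraries.

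Most highly expressed partners not given above are given by their means. Taf10 around Btaf1 stood at 107% of wildtype, Tob1 and Pum2 around Cpeb3 at 108% and 100.2%, and Aurkb around Kif11 at 139.9%. Rab11a and Rab8a around Exoc6 stood at 90.3% and 94.8%, Tnks1bp1 around Tnks2 at 97.9%, and Rybp and Fbrs around Pcgf5 at 98.0% and 112%. Hnf4a and Tle4 in the Hhex list both stood at 104%. Limma called none of these 11 genes.

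Of the marker lists not described so far, means were lower in the knockout for 8 of 8 smooth muscle, 8 of 8 endothelial and 8 of 8 B cell genes. The same held for 7 of 8 macrophage, 7 of 8 neuron and glia and 3 of 14 colonocyte and goblet genes. Over all 14564 tested rows, 8353 were lower by mean log2(FPKM + 1). Limma called none of the markers it tested, and of the 8 B cell genes it tested only 5. Among the most highly expressed genes of these lists, Tagln of smooth muscle averaged 2416 ± 553 FPKM in wildtype and 2054 ± 352 FPKM in the knockout. In the same order, Pecam1 of endothelium averaged 23.1 ± 3.74 and 15.7 ± 2.18 FPKM and Lyz2 of macrophages 222 ± 21.1 and 148 ± 32.4 FPKM. Zg16 of goblet cells averaged 2162 ± 325 and 2539 ± 722 FPKM (SD, n = 3 each).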
